A study of Mus musculus with 4 samples.

Results

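Transcripts of 10 genes for eicosanoid synthesis enzymes and phospholipases A2 were examined in mouse tumour macrophages treated in culture with exosomes, small vesicles that cells release. The 10 genes, out of 53139 loci in the deposited gene table, were those whose Ensembl identifiers map to the symbols Ptgs1, Ptgs2, Ptges, Alox5, Alox5ap, Lta4h, Ltc4s, Pla2g4a, Pla2g7 and Pla2g2d. All 10 were among the 12648 loci that the authors' Cuffdiff test had covered, and each was a row of its own.

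The macrophages were derived from an MCA fibrosarcoma, labelled 9609, with the cell line given as 9609 parent and the genotype as WT in all 4 samples. Of these, 2 received MEK1-low exosomes, which the treatment label also marks GFP, and 2 received MEK1-hi exosomes. MEK1 is the kinase that phosphorylates ERK. The labels give no untreated macrophages, no strain or age, and no statement of which cells released the exosomes or whether samples within a group were separate cultures, so MEK1 content and the GFP marking cannot be told apart as sources of a difference. The table holds 1 value per group in FPKM, fragments per kilobase of transcript scaled to library size, and no value per sample. No SD or confidence interval could therefore be computed, the depth of each library is unknown, and the p-values printed are those of the authors' test, which cover at most the variation among these 4 samples, possibly technical.

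Eicosanoids are short-lived lipid signals made from arachidonic acid. Phospholipases A2 cut the fatty acid from membrane phospholipids, and the ERK kinases are known to phosphorylate the cytosolic enzyme encoded by Pla2g4a. Cyclooxygenases then open the branch to prostaglandins and thromboxane, and 5-lipoxygenase with its partner protein FLAP opens the branch to leukotrienes. Macrophages are a major source of both kinds of mediator. Secreted and lipoprotein-associated phospholipases A2 act outside the cell, where the enzyme encoded by Pla2g7 also destroys platelet-activating factor (PAF).

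In the authors' deposited table, 2 of the 10 genes fell with MEK1-hi exosomes and 0 rose, a call being a deposited q-value under 0.05. Over all loci tested, 2.44% were called, 1.69% lower and 0.751% higher. The genes that fell were Pla2g7, from 854 to 463 FPKM, and Pla2g2d, from 2.76 to 0.536 FPKM. Values were lower with MEK1-hi exosomes in 9 of the 10 genes and higher in 1, Pla2g4a, against 49.8% of all tested loci with a lower and 50.2% with a higher value. The median log2 fold change of the 10 was -0.36 on the log2(FPKM + 1) scale, used for every list median below, against 0.00 over all loci tested. These are descriptions of 1 pair of group values per gene, for members chosen with earlier results of these data known. In bulk RNA, fewer cells of a type and less RNA per cell cannot be told apart.

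**Figure D1:**
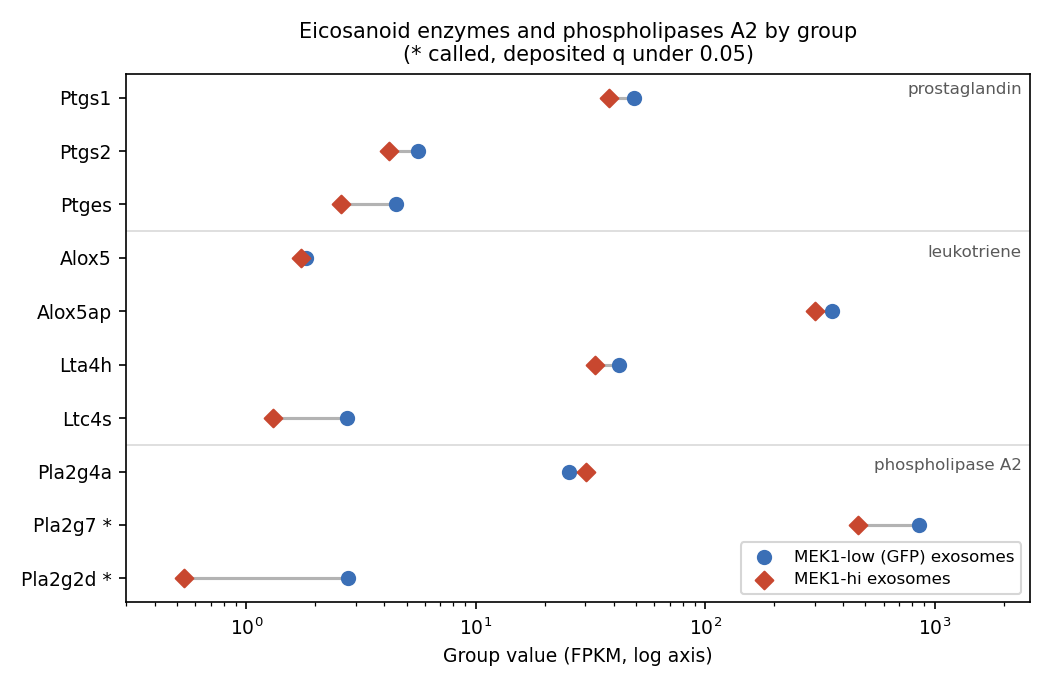
FPKM on a log axis for each of the 10 genes, with MEK1-low (GFP) exosomes as circles and MEK1-hi exosomes as diamonds, 1 authors' group value each and no error bars because no value per sample was used. The diamond lies left of the circle in 9 genes, with the widest gap at Pla2g2d (2.76 and 0.536 FPKM), and right of it at Pla2g4a (25.5 and 30.2 FPKM).

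Promoter windows of the 2 genes that fell, and of the inducible cyclooxygenase gene Ptgs2, are shown from RefSeq (build GRCm38.p6, 250 bases before to 50 after the start site, 5′ to 3′ on the gene's strand). They lie at chr17:43568201-43568500, chr4:138775485-138775784 and chr1:150099781-150100080, all on the plus strand. The Pla2g7 window lies inside the gene as annotated by GENCODE, which starts at 43568098, so bases before that start were not searched. Windows were found for 9 of the 10 genes, 10 windows in all because Pla2g4a has a pair. Capitals mark matches to 7 motifs searched on both strands.
Pla2g7: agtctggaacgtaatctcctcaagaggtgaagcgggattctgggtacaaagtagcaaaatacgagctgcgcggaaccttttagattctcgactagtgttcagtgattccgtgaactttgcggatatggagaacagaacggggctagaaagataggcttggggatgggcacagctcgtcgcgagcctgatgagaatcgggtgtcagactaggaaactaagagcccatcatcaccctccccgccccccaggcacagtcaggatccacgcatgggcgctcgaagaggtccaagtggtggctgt
Pla2g2d: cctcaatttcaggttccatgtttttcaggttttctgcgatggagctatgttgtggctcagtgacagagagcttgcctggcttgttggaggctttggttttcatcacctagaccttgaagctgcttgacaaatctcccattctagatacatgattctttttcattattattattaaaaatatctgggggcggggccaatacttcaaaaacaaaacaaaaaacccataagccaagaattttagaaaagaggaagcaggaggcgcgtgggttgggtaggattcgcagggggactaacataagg
Ptgs2: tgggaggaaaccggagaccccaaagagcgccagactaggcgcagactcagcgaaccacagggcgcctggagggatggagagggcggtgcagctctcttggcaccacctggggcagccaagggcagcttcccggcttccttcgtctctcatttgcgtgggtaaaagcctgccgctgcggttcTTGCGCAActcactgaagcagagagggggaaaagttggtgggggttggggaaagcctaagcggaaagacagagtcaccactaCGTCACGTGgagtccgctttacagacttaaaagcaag

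The motifs were the C/EBP palindrome TTGCGCAA, AP-1 as TGANTCA, the CRE core TGACG and the E-box CACGTG. The others were the TATA box TATAAA, a PU.1 site GAGGAAGT and NF-kB as GGGRNNYYCC. In these, N is any base, R is A or G, and Y is C or T. Ptgs2 held the C/EBP palindrome from base 182 to 189 of the window, a match that 0.183% of all 32851 promoter windows of this length hold. Its CRE core, on the minus strand at bases 264 to 268, overlaps its E-box at bases 267 to 272, and these motifs occur in 20.8% and 7.15% of all windows. The windows of Pla2g7 and Pla2g2d held none of the 7 letter strings. Among the other members, Ptgs1 held the PU.1 string (3.20% of all windows) and 1 window of Pla2g4a the TATA string (13.6%). AP-1 (7.81% of all windows) and NF-kB (8.46%) matched no member window. GC content was 54.0% for Pla2g7, 43.0% for Pla2g2d and 59.3% for Ptgs2, with a median of 52.7% over all windows. A match is a description of letters only.

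The members' phospholipases A2 held both calls and spanned the widest range of levels. Pla2g7 encodes the PAF acetylhydrolase, also called lipoprotein-associated phospholipase A2, which cleaves PAF and oxidised phospholipids. The gene (ENSMUSG00000023913.17, protein-coding, chromosome 17 from 43568098 to 43612201, plus strand, mm10) stood at 854 FPKM in the MEK1-low group and at 463 FPKM in the MEK1-hi group. Its level was thus 1.85-fold lower in the MEK1-hi group, with a log2 fold change of -0.88 (by the authors' deposited table, test statistic -3.60, p = 5e-05, q = 0.00349). That p is the smallest in the table and is shared by 181 loci.

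Pla2g7 was the most abundant of the 10 genes in both groups. It ranked 81st of the 12648 tested loci by FPKM with MEK1-low exosomes and 173rd with MEK1-hi exosomes. Of the 111 tested loci whose mean of both groups was at or above that of Pla2g7, 4 were called lower, Pla2g7 among them, and 3 higher. At all levels together, 1.69% of tested loci were called lower and 0.751% higher. The summed FPKM of the 10 genes was 1346 in the MEK1-low group and 876 in the MEK1-hi group, and Pla2g7 made up 63.5% and 52.8% of these sums. Without Pla2g7 the sums were 492 and 414 FPKM. The antisense gene 1700071M16Rik overlaps Pla2g7 and stood at 4.29 and 3.81 FPKM (by the authors' deposited table, q = 0.999). Whether counting used strand is not given in the sources used.

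Pla2g2d encodes a secreted phospholipase A2 described in macrophages and dendritic cells of lymphoid tissue. The gene (ENSMUSG00000041202.12, protein-coding, chromosome 4 from 138775735 to 138782046, plus strand) stood at 2.76 FPKM in the MEK1-low group and at 0.536 FPKM in the MEK1-hi group, 5.16-fold lower with the latter. The log2 fold change was -2.37, and -1.29 with 1 FPKM added to both values (by the authors' deposited table, test statistic -4.01, p = 5e-05, q = 0.00349). Only 8 loci among the 309 called ones, Pla2g2d included, had a log2 ratio this low or lower. Its level in the MEK1-hi group was under 1 FPKM, and the call is not counted where at least 5 FPKM is required in the higher group.

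Pla2g2d lies in a cluster of secreted phospholipase A2 genes that spans 158 kb of chromosome 4. Of its neighbours there, Pla2g2c, Pla2g2f, Pla2g2a and Pla2g5 were listed at 0 in both groups and not tested. Pla2g2e stood at 0.849 FPKM in the MEK1-low group and at 0.645 FPKM in the MEK1-hi group (by the authors' deposited table, p = 0.660, q = 0.999). Within the cluster, Pla2g2d was thus the gene with the highest value in the MEK1-low group, and in the MEK1-hi group Pla2g2e was listed slightly above it.

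Pla2g4a encodes the cytosolic phospholipase A2 alpha that releases arachidonic acid. The gene (ENSMUSG00000056220.14, chromosome 1 from 149829618 to 149961290, minus strand) stood at 25.5 FPKM in the MEK1-low group and at 30.2 FPKM in the MEK1-hi group, for a log2 fold change of 0.24 that did not pass (by the authors' deposited table, p = 0.117, q = 0.836). It was the 1 member with a higher value in the MEK1-hi group. Pla2g7 stood 33.5 times above Pla2g4a in FPKM in the MEK1-low group and 15.3 times above it with MEK1-hi exosomes. The change of this ratio was not tested.

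Among the cyclooxygenase genes, Ptgs1, which encodes the constitutive enzyme, was the more abundant. Ptgs1 (ENSMUSG00000047250.13, chromosome 2 from 36230426 to 36252272, plus strand) stood at 49.2 FPKM in the MEK1-low group and at 38.0 FPKM in the MEK1-hi group, for a log2 fold change of -0.37 (by the authors' deposited table, p = 0.0585, q = 0.622). Ptgs2 (ENSMUSG00000032487.8, chromosome 1 from 150100031 to 150108227, plus strand) encodes the inducible enzyme COX-2. It stood at 5.62 FPKM in the MEK1-low group and at 4.20 FPKM in the MEK1-hi group, for a log2 fold change of -0.42 (by the authors' deposited table, p = 0.0297, q = 0.437). Neither passed the test, and the ratio of Ptgs1 to Ptgs2 in FPKM was 8.76 in the MEK1-low group and 9.04 in the MEK1-hi group.

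Ptgs2 was the 1 member, beside the called pair, with an unadjusted p under 0.05, so that 3 of the 10 were lower and 0 higher by that rule. Over all tested loci, 5.12% were lower and 3.53% higher by it. Ptgs2 and Pla2g4a are neighbours on chromosome 1, separated by 139 kb that hold 3 annotated genes, none of them protein-coding. Their log2 fold changes, -0.42 and 0.24, had opposite signs, and neither was called.

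Ptges encodes the microsomal prostaglandin E synthase that works downstream of COX-2. The gene (ENSMUSG00000050737.13, chromosome 2 from 30889471 to 30929863, minus strand) stood at 4.48 FPKM in the MEK1-low group and at 2.59 FPKM in the MEK1-hi group. The log2 fold change of -0.79 did not pass (by the authors' deposited table, test statistic -0.954, p = 0.141, q = 0.877). All 3 prostaglandin members thus had lower values with MEK1-hi exosomes, with a median log2 fold change of -0.36, and 0 of the 3 were called. Of all tested loci, 49.8% had a lower value and 2.44% were called.

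The leukotriene branch had lower values in all 4 members, with a median log2 fold change of -0.29. Cuffdiff called 0 of them, beside 2.44% of all loci tested, and 0 had an unadjusted p under 0.05. A lower value was listed for 49.8% of all tested loci. Alox5ap encodes FLAP, the membrane protein that presents arachidonic acid to 5-lipoxygenase. The gene (ENSMUSG00000060063.9, chromosome 5 from 149264767 to 149288153, plus strand) stood at 357 FPKM in the MEK1-low group and at 302 FPKM in the MEK1-hi group, for a log2 fold change of -0.24 (by the authors' deposited table, p = 0.241, q = 0.999). Alox5, the gene of 5-lipoxygenase itself (ENSMUSG00000025701.12, chromosome 6 from 116410077 to 116461178, minus strand), stood at 1.81 and 1.73 FPKM (by the authors' deposited table, p = 0.858, q = 0.999). The enzyme's transcript was thus the lowest of the 10 in the MEK1-low group while that of its partner was the second highest in both groups, with 197 times the FPKM of Alox5 in the MEK1-low and 174 times in the MEK1-hi group.

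Leukotriene A4, the product of 5-lipoxygenase, is turned into leukotriene B4, which attracts neutrophils, by the hydrolase encoded by Lta4h. Lta4h (ENSMUSG00000015889.8, chromosome 10 from 93453411 to 93484875, plus strand) stood at 42.2 FPKM in the MEK1-low group and at 33.3 FPKM in the MEK1-hi group, for a log2 fold change of -0.34 (by the authors' deposited table, p = 0.0574, q = 0.615). The synthase encoded by Ltc4s takes the same substrate to leukotriene C4, the first cysteinyl leukotriene. Ltc4s (ENSMUSG00000020377.15, chromosome 11 from 50236461 to 50238616, minus strand) stood at 2.75 FPKM in the MEK1-low group and at 1.31 FPKM in the MEK1-hi group.

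The log2 fold change of Ltc4s was -1.07 and did not pass (by the authors' deposited table, test statistic -0.573, p = 0.294, q = 0.999). In size it came after Pla2g2d and before Pla2g7 (-0.88), but on the log2(FPKM + 1) scale, where it was -0.70, it came after both. Of 197 tested loci that stood at 1 FPKM or more with MEK1-low exosomes and had a log2 ratio as low as that of Ltc4s or lower, 68 were called. The table's locus for Ltc4s runs to base 50292311 and is shared with Maml1 (5.48 FPKM in both groups) and the antisense gene Gm26542 (0.313 and 0.218 FPKM), each in a row of its own. Lta4h stood 15.3 times above Ltc4s in FPKM in the MEK1-low group and 25.4 times above it with MEK1-hi exosomes, and with no spread between samples these ratios were not tested.

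**Figure D2:**
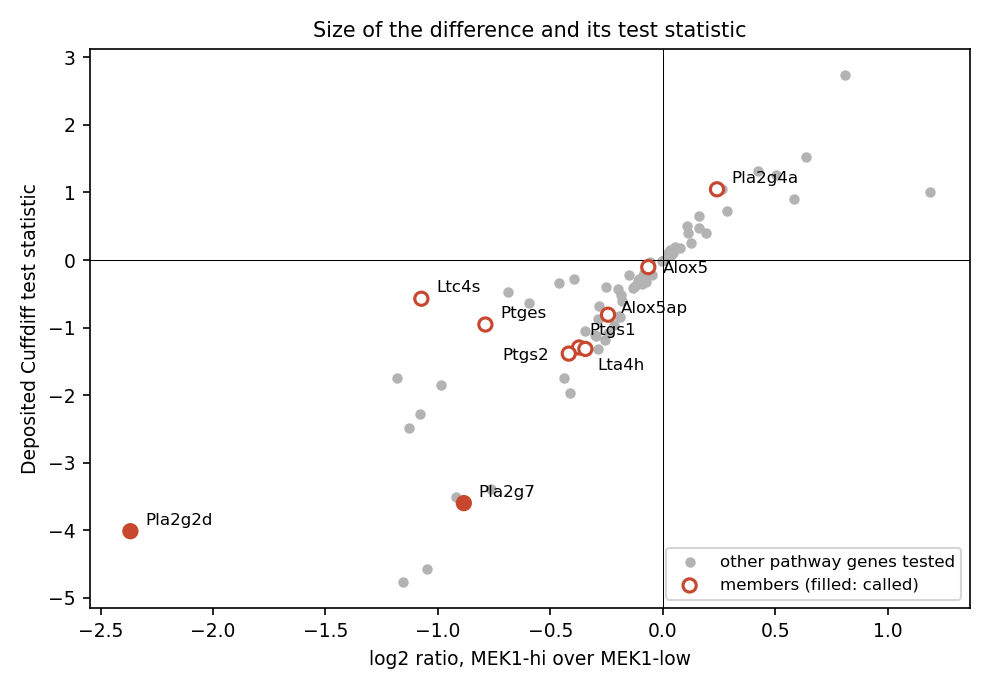
Log2 ratio of MEK1-hi over MEK1-low (x axis) against the authors' deposited Cuffdiff test statistic (y axis, no unit) for the 10 members and the other tested genes of the pathway. Ltc4s (log2 ratio -1.07) and Ptges (-0.79) have statistics of -0.573 and -0.954, while Pla2g7, with a ratio of similar size (-0.88), has -3.60.

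In order of level with MEK1-low exosomes, the genes were Pla2g7, Alox5ap, Ptgs1, Lta4h, Pla2g4a, Ptgs2, Ptges, Pla2g2d, Ltc4s and Alox5. The first 7 places were the same with MEK1-hi exosomes, and the last 3 were then Alox5, Ltc4s and Pla2g2d. Without values per sample it is not known which neighbours in this order differ beyond their spread. Pla2g2d and Ltc4s were both listed near 2.8 FPKM in the MEK1-low group, at 2.76 and 2.75 FPKM.

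**Figure D3:**
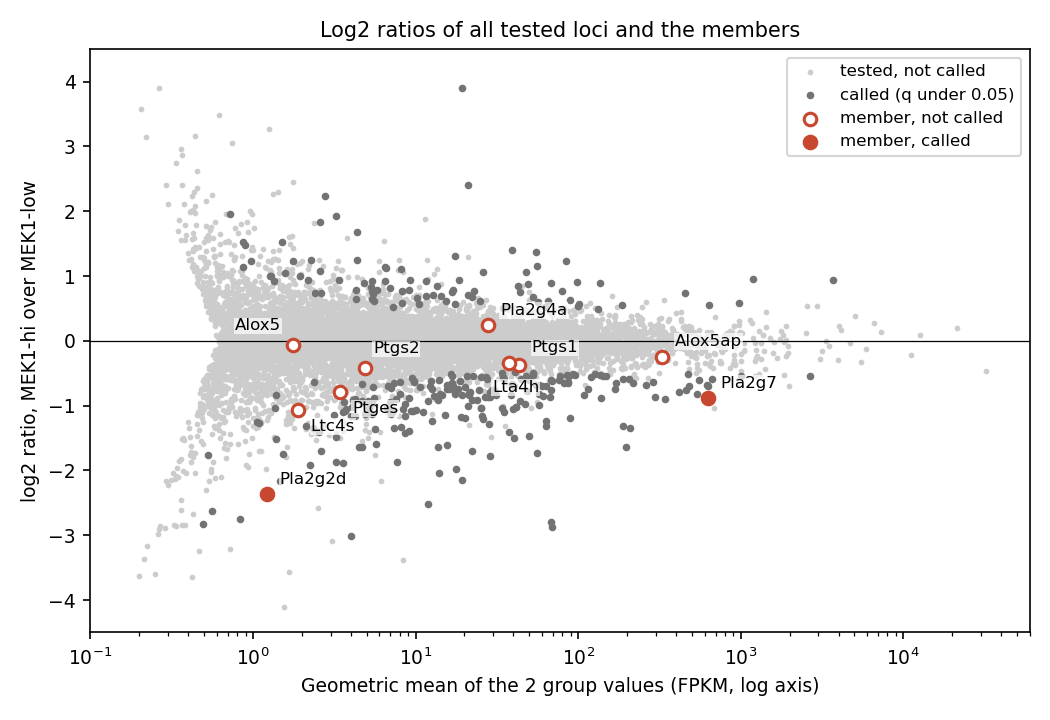
Each point is 1 tested locus above 0 in both groups, by the geometric mean of its group values (x axis, FPKM, log axis) and its log2 ratio of MEK1-hi over MEK1-low (y axis), of 12606 such loci, with 6 beyond the y axis and 2 beyond the x axis. The called members Pla2g7 (-0.88) and Pla2g2d (-2.37) lie below 0 at high and low abundance, and the other 8 lie within the cloud of loci that were not called.

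Other genes of the pathway were taken from 7 lists, which were chosen with earlier results of these data known. Their counts are thus descriptions and no independent support. Of 67 such loci tested, 6 fell and 1 rose in the authors' deposited table, beside 1.69% lower and 0.751% higher over all loci tested. Values were lower in 45 and higher in 22, beside 49.8% lower and 50.2% higher over all loci tested. Their median log2 fold change was -0.09 on the log2(FPKM + 1) scale. The loci that fell were those of Ephx1, Ggt5, Mgst2, Ptgir, Acsl1 and Lpcat2, and the gene that rose was Hpgd. A further 41 loci of these lists were not tested, 17 of them listed at 0 in both groups, and the highest value among the 41 was 0.523 FPKM.

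**Figure D4:**
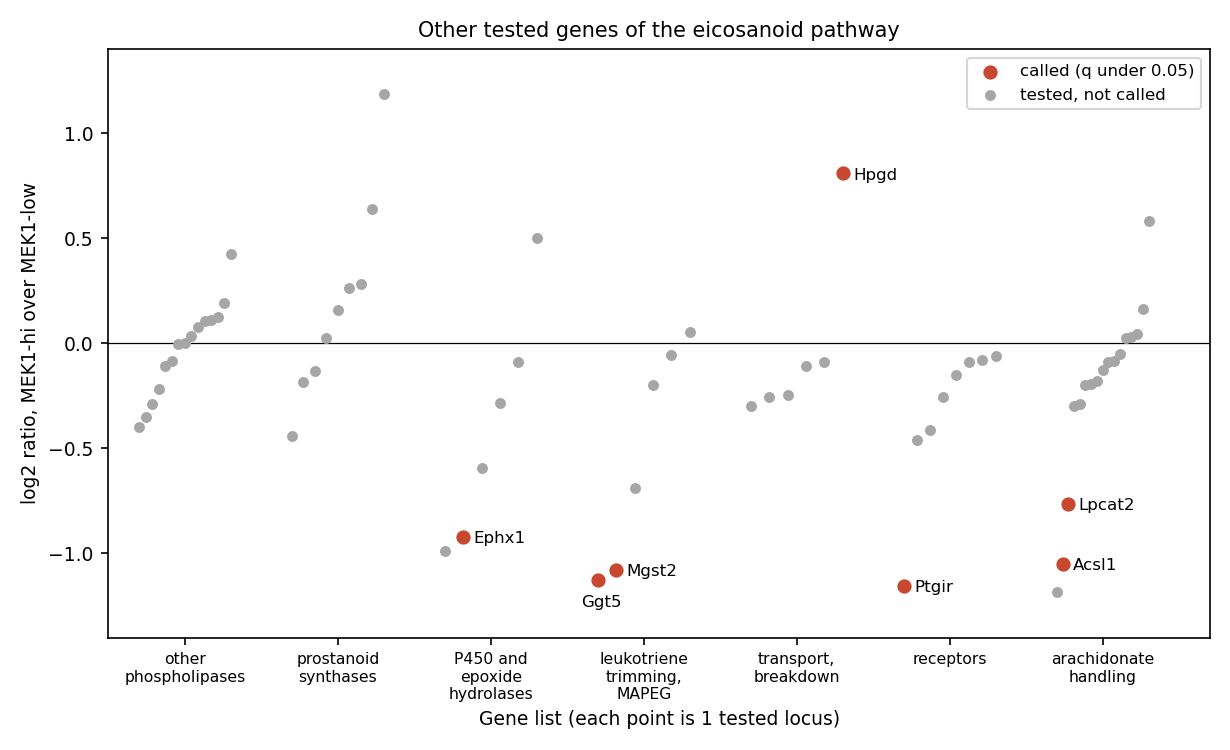
Log2 ratio of MEK1-hi over MEK1-low (y axis) for the 67 tested loci of the 7 other pathway lists (x axis), each point 1 locus, with called loci in red and named. The 6 called below 0 lie in 4 of the lists, Hpgd is the 1 called above 0, and the lists of other phospholipases and prostanoid synthases hold no called locus.

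None of the 15 tested loci in the list of other phospholipases A2 and their relatives was called by Cuffdiff, and 0 had an unadjusted p under 0.05. Their values were lower in 7 and higher in 8, with a median log2 fold change of 0.00. Pla2g15, the lysosomal phospholipase A2, stood at 56.7 and 61.0 FPKM in the MEK1-low and MEK1-hi groups (by the authors' deposited table, q = 0.999). Pnpla2, the triglyceride lipase of lipid droplets, stood at 61.3 and 52.7 FPKM (by the authors' deposited table, q = 0.914). Pafah1b1, which encodes a subunit of the intracellular PAF acetylhydrolase, stood at 45.0 and 42.4 FPKM (by the authors' deposited table, q = 0.999). Over all loci tested 2.44% were called, so 0 calls among 15 loci does not set these relatives apart.

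The 9 tested loci of other terminal prostanoid synthases likewise held 0 calls by Cuffdiff, beside 2.44% called over all loci tested. At an unadjusted p under 0.05, 1 was lower and 1 higher, and the list's median log2 fold change was 0.15. Tbxas1, the thromboxane synthase, stood at 118 FPKM in the MEK1-low group and at 142 FPKM in the MEK1-hi group (by the authors' deposited table, q = 0.842). Hpgds, the haematopoietic prostaglandin D synthase, stood at 40.1 and 62.4 FPKM (by the authors' deposited table, p = 0.0257, q = 0.401). Cbr1, a carbonyl reductase that acts on prostaglandin E, stood at 23.5 and 17.3 FPKM (by the authors' deposited table, p = 0.0119, q = 0.248). Ptges3, the cytosolic prostaglandin E synthase that also serves as an HSP90 co-chaperone, stood at 47.3 and 48.1 FPKM. Tbxas1 thus stood above Ptges in both groups, 26.4 times in FPKM in the MEK1-low group and 54.8 times with MEK1-hi exosomes. Neither gene was called, and the change of this ratio was not tested.

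Among 6 tested genes of eicosanoid transport and breakdown, Hpgd rose and 0 fell, beside 0.751% called higher and 1.69% lower over all loci tested. Hpgd encodes the dehydrogenase that starts the breakdown of prostaglandins. It rose from 5.29 to 9.26 FPKM, 1.75-fold (by the authors' deposited table, log2 fold change 0.81, p = 0.00015, q = 0.00887). In FPKM it stood 1.18 times above Ptges with MEK1-low and 3.57 times above it with MEK1-hi exosomes, a ratio for which no test is available. The leukotriene C4 exporter gene Abcc1 stood at 88.8 and 72.1 FPKM (by the authors' deposited table, q = 0.614). The prostaglandin reductase genes Ptgr1 (40.1 and 33.6 FPKM) and Ptgr2 (22.9 and 21.3 FPKM) were not called either. The list's median log2 fold change was -0.16.

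Of the 6 loci tested for the trimming of cysteinyl leukotrienes and for MAPEG proteins, the membrane family of Ltc4s, Alox5ap and Ptges, 2 fell and 0 rose. The shares over all tested loci were 1.69% lower and 0.751% higher. The list's median log2 fold change was -0.44. Ggt5, the gamma-glutamyl transferase that converts leukotriene C4 to D4, fell from 7.21 to 3.30 FPKM (by the authors' deposited table, log2 fold change -1.13, p = 0.0003, q = 0.0157). Mgst2, a glutathione transferase that can also make leukotriene C4, fell from 13.6 to 6.46 FPKM (by the authors' deposited table, log2 fold change -1.08, p = 0.001, q = 0.0415). The dipeptidase locus of Dpep2, joined with Gm22972 and Dpep2nb, stood at 139 and 86.4 FPKM (by the authors' deposited table, p = 0.0531, q = 0.592). Mgst1 stood at 289 and 253 FPKM, and Mgst3 at 13.7 and 14.2 FPKM (by the authors' deposited table, q = 0.999 for both).

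Receptor genes for prostanoids, leukotrienes and PAF had lower values in all 8 members tested, of which 1 was called. For all tested loci, 49.8% had a lower value and 1.69% were called lower. The median log2 fold change of the receptor genes was -0.12. Ptgir, the prostacyclin receptor, fell from 12.9 to 5.78 FPKM (by the authors' deposited table, log2 fold change -1.15, p = 5e-05, q = 0.00349). Ptafr, the PAF receptor, stood at 75.9 and 57.1 FPKM (by the authors' deposited table, p = 0.0051, q = 0.141). The prostaglandin E receptor genes Ptger4 (18.9 and 18.1 FPKM) and Ptger2 (11.7 and 11.1 FPKM) did not pass (by the authors' deposited table, q = 0.999 for both).

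In the list of arachidonate handling, 2 of 17 tested loci fell and 0 rose, with a median log2 fold change of -0.09. Among all tested loci, 1.69% were called lower and 0.751% higher. Acsl1, a ligase that activates long-chain fatty acids, fell from 57.4 to 27.7 FPKM (by the authors' deposited table, log2 fold change -1.05, p = 5e-05, q = 0.00349). Lpcat2, an acyltransferase that makes PAF from lyso-PAF, fell from 38.3 to 22.5 FPKM (by the authors' deposited table, log2 fold change -0.77, p = 5e-05, q = 0.00349). A gene for an enzyme that forms PAF and Pla2g7, for one that destroys it, were thus both called lower. The related genes that follow were not called, and no test compared them with this pair. The PAF receptor gene Ptafr was lower too (75.9 and 57.1 FPKM). Lpcat1 (43.1 and 40.5 FPKM) and Pafah1b1 (45.0 and 42.4 FPKM) were slightly lower and not called. Pafah1b2 (25.8 and 29.5 FPKM), Pafah1b3 (12.2 and 16.4 FPKM) and Pafah2 (3.70 and 4.04 FPKM) were higher and not called. Fads2, a desaturase on the way to arachidonic acid, stood at 1.57 and 0.692 FPKM (by the authors' deposited table, p = 0.00545, q = 0.147). Anxa1, which encodes annexin A1, a protein known to restrain phospholipase A2, stood at 500 and 438 FPKM (by the authors' deposited table, q = 0.970). Daglb (58.7 and 60.7 FPKM) and Acsl5 (50.4 and 44.5 FPKM) did not pass either.

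Of the 6 tested loci of other lipoxygenases, P450 enzymes and epoxide hydrolases, Ephx1, in a locus joined with Gm36961, fell from 18.8 to 9.93 FPKM (by the authors' deposited table, log2 fold change -0.92, p = 5e-05, q = 0.00349). Ephx1 encodes the microsomal epoxide hydrolase. The others were not called, and the share called lower over all loci tested was 1.69%. The median of the 6 was -0.28. Cyp2j6, of a P450 subfamily with epoxygenases, stood at 0.766 and 0.387 FPKM (by the authors' deposited table, p = 0.0123, q = 0.255). The P450 genes Cyp4f13 and Cyp4f16 were listed at 20.3 and 19.0 FPKM, and at 10.5 and 8.62 FPKM, and were not called. No lipoxygenase gene of this list was tested, and Alox15 was listed at 0.0151 and 0.0298 FPKM, so Alox5 was the 1 lipoxygenase gene with a tested value.

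Markers were read beside these results. Macrophage markers were abundant, with 9 of 10 tested, sums of 16160 and 16811 FPKM in the MEK1-low and MEK1-hi groups, and Lyz2 (12303 and 13148 FPKM), Cd68 and Csf1r leading. Cd14 alone was called, lower with MEK1-hi exosomes at 136 against 213 FPKM (by the authors' deposited table, q = 0.00349), and the scavenger receptor gene Cd163 stood under 0.03 FPKM. Neutrophils are rich in 5-lipoxygenase, and 2 of 10 of their markers were tested, Csf3r (37.8 and 30.8 FPKM) and S100a8 (35.5 and 22.6 FPKM), with sums of 73.6 and 53.6 FPKM over the list. S100a9, Ly6g, Mpo, Elane and Retnlg were listed at 0 in both groups. Mast cell and basophil markers summed to 1.28 and 1.66 FPKM, nearly all of it Gata2 (1.15 and 1.54 FPKM), with Cpa3, Tpsb2, Tpsab1, Cma1, Ms4a2 and Hdc listed at 0 in both groups. Dendritic cell, fibroblast and lymphocyte markers summed to at most 9.44 FPKM per list and group, with Clec9a, in a locus joined with Clec1b, Postn and Cd4 the highest. Sums were lower with MEK1-hi exosomes in the neutrophil, fibroblast and lymphocyte lists and higher in the macrophage, mast cell and dendritic cell lists. Any part of such cells in the values of the members was not tested.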

How the data were processed

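RNA from 4 samples of tumour macrophages, 2 per group, was sequenced as 100 bp paired-end reads from stranded mRNA libraries made with 750 ng of RNA, per the labels' protocols. Tools named, without settings, in the submitters' processing notes were TopHat, Cufflinks, Cuffdiff and FastQC 0.73, with build mm10. The single table used holds, per the file headers, the authors' FPKM, 1 for each group. It also holds the authors' deposited test score (Cuffdiff's statistic), p-value and q-value. Adjusting those p-values by Benjamini-Hochberg across the 12648 loci tested gave the q-values within 5.19e-07. The GFP exo column was matched to MEK1-low through the treatment label. Depth per sample is unknown.

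Computed here, with Python 3.11.15 and pandas 2.3.3, were symbols for 54771 of 55029 identifiers, fold changes as MEK1-hi over MEK1-low, and list counts and medians on the log2(FPKM + 1) scale. Of the tested loci, 871 join several gene identifiers. Positions are from GENCODE M21, counted from 1. A call was a deposited q-value under 0.05.

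The members and lists were chosen with earlier results of these data known. Beside the members, the text names from each pathway list the genes called or with p under 0.05 and the 3 with the highest mean. From marker lists it names called genes and up to 3 of the highest mean. Neighbours, overlapping genes, Alox15, Cd163, Lpcat1, Pafah1b2, Pafah1b3, Pafah2 and markers listed at 0 were chosen after their values were seen. Alternatives covered thresholds, filters on low values, pseudocounts, scaling and joined loci.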

Additional observations from a re-analysis of the deposited data

How the results depend on the processing

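With at least 5 FPKM required in the higher group, the count of called members was 1 in place of 2, since Pla2g2d no longer qualified by construction. At an unadjusted p under 0.05, 12 other pathway loci passed in place of 7, of which 10 were lower and 2 higher. Under the other thresholds and filters, the counts of called members and of other pathway loci stayed within 1.5 times, the latter being 5 at a q-value under 0.01 and 6 without loci that join several genes. The median log2 fold change of the members lay between -0.40 with no pseudocount and -0.30 with 5 FPKM added. All 10 members kept the sign of their log2 fold change with pseudocounts of 1 and 0.1 FPKM, scaled to the same total FPKM (a shift of 0.04) and centred on the median of tested loci. With 1 FPKM added, the log2 fold change of Pla2g2d moved most, from -2.37 to -1.29, and those of Ltc4s and Ptges moved from -1.07 to -0.70 and from -0.79 to -0.61. The other 7 moved by less than 0.1. No paired analysis was possible because the table holds 1 value per group, and for the same reason no replicate could be left out. FPKM keeps no counts, so the precision of low values such as those of Pla2g2d, Ltc4s and Alox5 cannot be given.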
